A study of Mus musculus with 23 samples.

Results

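KC collagen organoids at day 13 were deposited in 2 batches, and the comparison described here set the 3 libraries of batch 2 against the 5 libraries of batch 1. The 8 libraries, of 23 in the series, carry the same labels for mouse (line 9591), genotype, matrix and day, and differ in the batch label. KC tumor cells come from a mouse model of pancreatic ductal adenocarcinoma (PDAC) in which Ptf1a Cre/+ drives recombination in the developing pancreas. They were grown as organoids in floating collagen I gels. The labels do not say what a batch is, so a separate culture, RNA extraction or sequencing run cannot be told apart. A single mouse line stands behind all 8 libraries. The study's figure legends describe the collagen day 13 libraries set beside Matrigel and day 7, which match batch 1 in number, as separate experiments. How the batch 2 libraries were separated is not given in the sources used here, so the spread within batch 2 may be technical. Beside them stand 6 libraries of KC cells grown in 2D, 3 KC Matrigel day 13 and 3 KC collagen day 7 libraries, all of batch 1. A further 3 are KPC collagen day 13 libraries of batch 2 from 1 further mouse (line 14390, driven by Pdx1 Cre/+).

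In collagen, PDAC cells build branched epithelial structures, passing from proliferating, invading cells to a polarized epithelium that secretes mucus. Their state at harvest reflects growth factor signaling, traction on collagen through integrins and actomyosin, ribosome production and metabolism. Immediate early genes are transcription factors and feedback regulators induced within minutes by growth factors, mechanical stress or tissue handling, and the organoids were freed from the gel with collagenase before lysis. Each library was counted from the 3′ ends of transcripts with unique molecular identifiers (UMIs), short tags that let copies of the same molecule be counted once.

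The libraries held 1844157 to 2097989 UMI counts in batch 1 and 1526771 to 1573866 in batch 2, with 15379 to 16237 and 14866 to 14949 genes detected. Levels are given as CPM, the UMI counts of a gene scaled by its library's total times its trimmed mean (TMM) factor, and 3 counts corresponded to 1.34 to 1.57 CPM in batch 1 and 1.98 to 2.08 CPM in batch 2. Libraries 4 and 5 of batch 1 stood apart from libraries 1 to 3, and values without them are given where they moved a result most. The ductal label held: Epcam lay between 45.2 and 112 CPM and Krt18 between 2590 and 3905 CPM in all 8 libraries. Islet, endothelial and erythroid markers reached at most 1, 8 and 2 counts in any library, and Cela1, the highest acinar marker, reached 24. Of 8 macrophage and leukocyte markers in the table, 6 stayed at or under 3 counts in every library, Ptprc, Csf1r and Lyz2 among them, while Cd14 had 105 to 231 counts and Cd68 25 to 41. Of 11 fibroblast markers in the table, 5 stayed at or under 3 counts in every library, and the summed level of all 11 was 54.4 to 112 CPM in batch 1 and 49.4 to 66.2 CPM in batch 2. Fewer cells of a type and less RNA per cell cannot be told apart in bulk libraries.

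The batch difference reached a large share of the transcriptome. Of 11144 genes tested, 4161 passed the test (37.3%; edgeR's quasi-likelihood test, Benjamini-Hochberg adjusted p under 0.1), 2149 of them higher in batch 2 (19.3%) and 2012 lower (18.1%). The libraries of the 2 batches did not overlap for 4003 genes (35.9%), of which 1800 passed as higher and 1558 as lower. Among the genes that passed, 650 were over 2-fold higher and 499 over 2-fold lower, and the median of all tested genes was -0.05 on the log2 scale. With counts scaled by library size alone, 35.3% of the genes that passed were higher, against 51.6% with the TMM scaling used otherwise, and the median of all genes moved to -0.18. Against libraries 4 and 5 of batch 1 alone, 2348 genes passed, and against libraries 1 to 3 alone, 4314. For 2520 genes (22.6%) the 95% interval of the difference lay within 1.5-fold either way, and these are called held below. The remaining 4618 genes neither passed the test nor held within that margin. On the 500 most variable genes the mean distance between libraries of different batches was 39.6, against 16.8 within batch 1 and 18.3 within batch 2 (pseudo-F 16.8, exact permutation test over the 56 divisions of the libraries, one-sided p = 0.0179, the smallest it allows).

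Component 1, which carried 51% of the variance of all 23 libraries, ran from the KC cells grown in 2D (-28.8 to -19.6) and the day 7 organoids (-23.7 to -20.97) to the batch 2 libraries. It placed batch 2 at 27.3 to 28.9 and libraries 1 to 3 of batch 1 at 3.06 to 4.05. Library 4 and library 5 of batch 1 lay between them, at 9.37 and 12.4. The KC Matrigel libraries of batch 1 lay at 1.48 to 4.41, and the KPC libraries, which share batch 2 but not the mouse, at 26.2 to 30.2. Component 2, with 18% of the variance, placed the KPC libraries at 17.1 to 21.3 and the KC libraries of batch 2 at -3.73 to -2.81. Matrigel against batch 1 gave 1439 genes that passed the test (12.9%) with a median absolute log2 fold change of 0.21 over all genes, and day 7 against batch 1 gave 6145 (55.1%) and 0.49, while batch 2 against batch 1 gave 0.37. All 3 comparisons share the 5 batch 1 libraries.

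**Figure D1:**
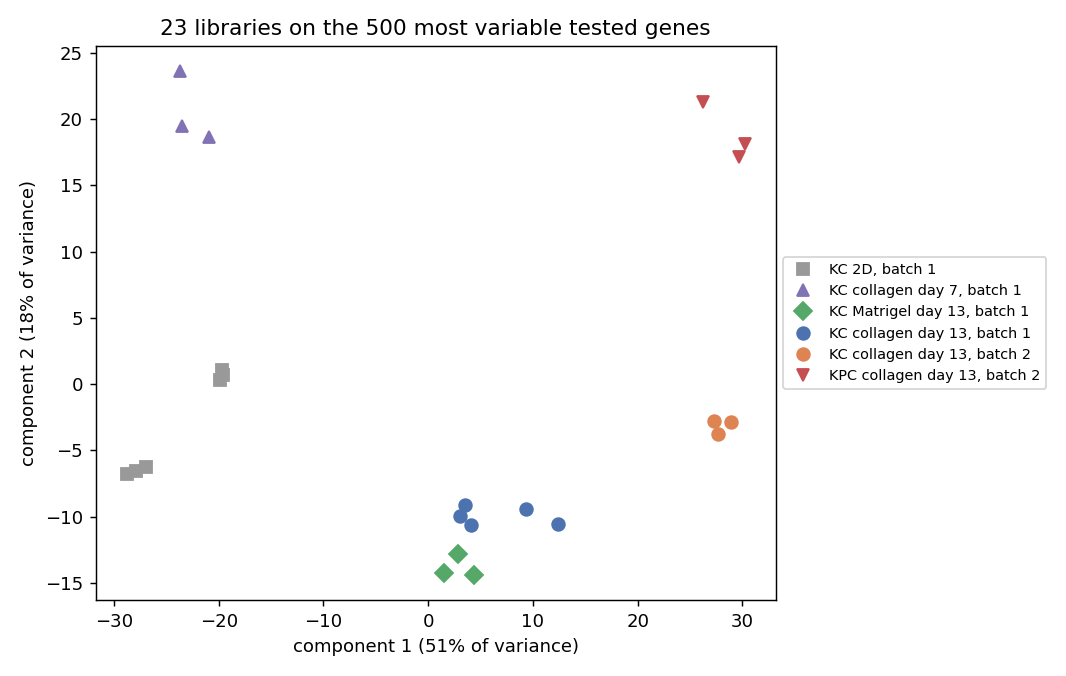
Position of each of the 23 libraries on components 1 and 2 of the 500 most variable tested genes (axis labels give the share of variance in percent), with 1 point per library and a color and shape per group. The KC libraries of batch 2 lie at 27.3 to 28.9 on component 1, next to the KPC libraries of the same batch at 26.2 to 30.2, and libraries 4 and 5 of batch 1 lie between batch 2 and the other batch 1 libraries.

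Several of the genes or processed copies most lowered in batch 2 end in a sequence that a second locus of the genome holds almost letter for letter, so that a 3′ read can be assigned to either or discarded. Ftl1 (chr7:45457944-45459884, minus strand), the ferritin light chain, and the ribosomal protein genes Rpl24 (chr16:55966275-55971435, plus strand) and Rps6 (chr4:86854660-86857412, minus strand) are shown because a read from this stretch may not tell the gene from its copy. The stretches are the last 60 coding bases of each gene and the best match in its copy, 5′ to 3′ on the coding strand, from GENCODE transcripts on GRCm38, with capitals where the pair differs.
Ftl1: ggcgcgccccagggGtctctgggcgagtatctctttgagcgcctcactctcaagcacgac
Ftl1-ps1: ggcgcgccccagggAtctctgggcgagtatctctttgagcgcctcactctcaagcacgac
Rpl24: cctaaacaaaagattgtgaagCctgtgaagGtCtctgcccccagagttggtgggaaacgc
Gm12254: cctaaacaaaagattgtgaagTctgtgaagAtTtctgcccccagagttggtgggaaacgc
Rps6: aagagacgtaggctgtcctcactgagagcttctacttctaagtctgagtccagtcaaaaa
Rps6-ps4: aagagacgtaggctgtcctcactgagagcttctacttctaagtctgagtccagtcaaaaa
The Ftl1 pair differed at 1 of the 60 bases and the Rpl24 pair at 3, and the Rps6 pair at 0.

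No tested copy among these pairs passed as higher in batch 2. Ftl1 had 1365, 1114, 1201, 892 and 1045 CPM in libraries 1 to 5 of batch 1 and 158, 193 and 166 CPM in batch 2, without overlap (log2 fold change -2.71 ± 0.14 SE, adjusted p = 3.33e-12). Ftl1-ps1 stayed at or under 4.76 CPM in all 8 libraries, and the sum of Ftl1 and Ftl1-ps1 in batch 2 was 0.154 times that in batch 1. Rps6, from 223 to 45.1 CPM, had a sum ratio of 0.202 with Rps6-ps4. In the Rpl24 pair the copy was the gene among the most lowered, Gm12254 from 23.7 to 3.12 CPM, while Rpl24 itself was at 10.2 and 5.15 CPM (log2 fold change -0.98 ± 0.45, adjusted p = 0.0821), and the sum ratio was 0.244. Rps4x with its copy Gm9616 (0.323) and Eno1 with Eno1b (0.207) also fell as sums. Rpl35 fell while its copy Gm2000 stood at 82.4 CPM in batch 1 and 112 CPM in batch 2 (adjusted p = 0.53), and their sum ratio was 0.380. Other copies of these genes were not summed, and whether read assignment differed between batches was not tested.

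Apol7a, Dstn and Eml4 were among the 10 genes with the smallest adjusted p, all higher in batch 2, and none of the 3 shares a 31-base word of its 3′ end with another gene. Apol7a (chr15:77388219-77399110), a member of the apolipoprotein L family, had 12.9, 10.49, 10.46, 12.5 and 13.1 CPM in batch 1 and 85.6, 101 and 82.1 CPM in batch 2 (log2 fold change 2.91 ± 0.15 SE, adjusted p = 1.41e-13). Dstn, destrin, an actin-depolymerizing protein, had 136, 166, 153, 159 and 186 CPM in batch 1 and 834, 1102 and 866 CPM in batch 2 (2.54 ± 0.13, adjusted p = 1.41e-13). Every batch 2 library lay far above every batch 1 library for both genes, and the KPC libraries of batch 2 held 30.5 to 37.5 CPM of Apol7a and 572 to 754 CPM of Dstn. Eml4, a microtubule-binding protein, had 67.7, 69.1, 66.1, 77.9 and 78.3 CPM in batch 1 and 275, 372 and 323 CPM in batch 2 (2.17 ± 0.14, adjusted p = 2.33e-11), with KPC at 117 to 163 CPM. Psca, prostate stem cell antigen, a surface protein of gastric and pancreatic tumor epithelium, had 54.4 to 135 CPM in batch 1 and 466 to 733 CPM in batch 2 (2.73 ± 0.26, adjusted p = 3.09e-08), and the KPC libraries held 604 to 865 CPM.

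Pnliprp2, a pancreatic lipase-related protein, had the largest log2 fold change among the genes without overlap that reached 20 CPM in batch 2, 3.27 ± 0.29 SE (adjusted p = 5.71e-09). Its levels were 12.9, 4.77, 7.61, 20.9 and 31.3 CPM in batch 1, highest in libraries 4 and 5, and 156, 173 and 118 CPM in batch 2. Ly6m, Sytl5, Farp2, Cwh43, the linker histone gene H1f4 and the unnamed loci Gm42726, AI506816 and Gm44275 completed the 12 most raised, with log2 fold changes from 2.49 (Gm44275) to 3.23 (Gm42726). Pam, the enzyme that amidates secreted peptides, was among the most certain differences, at 92.1 to 118 CPM in batch 1 and 268 to 361 CPM in batch 2 (1.52 ± 0.11, adjusted p = 5.14e-10).

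Lowered genes that share none of their 3′ sequence, or less of it, included Pgk1, Myl6 and Mrps21. Pgk1, a glycolytic kinase with 0% of its 31-base words shared, had 139, 125, 116, 99.7 and 134 CPM in batch 1 and 27.7, 37.4 and 29.8 CPM in batch 2 (log2 fold change -1.95 ± 0.14 SE, adjusted p = 5.50e-10). Myl6, a light chain of nonmuscle myosin, had 370 to 403 CPM in batch 1 and 115 to 132 CPM in batch 2 (-1.61 ± 0.12, adjusted p = 8.19e-10). Mrps21, a mitochondrial ribosomal protein with 27.6% shared, had 97.9 to 117 CPM in batch 1 and 16.6 to 25.01 CPM in batch 2 (-2.33 ± 0.16, adjusted p = 1.42e-10). In the KPC libraries of batch 2 the levels were 13.6 to 16.1 CPM for Pgk1, 126 to 144 CPM for Myl6 and 29.4 to 37.5 CPM for Mrps21, all below the batch 1 range. Igfbpl1, an insulin-like growth factor binding protein relative, had 5.99, 41.5, 35.2, 40.5 and 31.9 CPM in batch 1 and 1 count in all of batch 2, a ratio of 138 with a counting interval of 24.7 to 5483. The interval of Igfbpl1 covers counting error only, and KPC libraries held no count of it. Cyp2c55, a cytochrome P450, was lower (-2.81 ± 0.68, adjusted p = 0.00156), but its batch 1 levels were 25.2 to 38.3 CPM in libraries 1 to 3 and 246 and 188 CPM in libraries 4 and 5, against 11.9 to 18.7 CPM in batch 2. Without libraries 4 and 5 its log2 fold change was -1.02 (adjusted p = 0.0269). Gstp1, Gm3511 and Gm9616, each with over 60% of words shared, were also among the 12 most lowered.

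**Figure D2:**
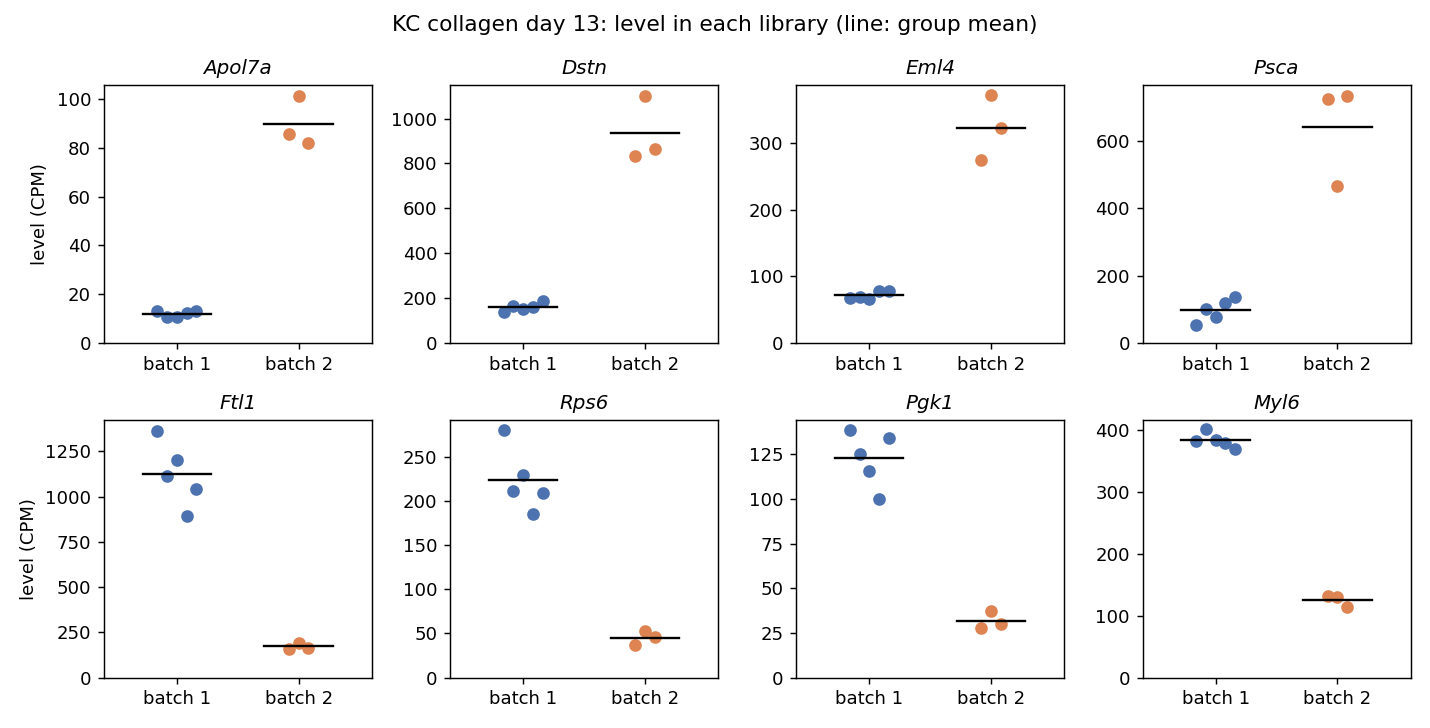
Level in CPM (vertical axes, each from 0) of 8 genes in the 5 libraries of batch 1 and the 3 of batch 2, 1 point per library and a line at the group mean. Apol7a, Dstn, Eml4 and Psca are higher in every batch 2 library and Ftl1, Rps6, Pgk1 and Myl6 lower, without overlap.

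Gene lists for known programs were read against the shares over all tested genes. Of 40 such lists with at least 5 tested genes, 30 had a larger share of members passing the test than the 37.3% of all genes. The share passing rose with level, from 20.4% in the tenth of genes with the lowest levels to 43.6% in the tenth with the highest, with a maximum of 48.9% just below it, and 24 of the 40 lists exceeded the share found at their members' own levels. The direction differed from list to list. Immediate early genes, EGF receptor ligands and receptors, integrins, actin regulators, TGF-beta feedback and mucus products had more raised than lowered members. Ribosome biogenesis, cytosolic ribosomal proteins, the nuclear-encoded respiratory chain, iron handling and DNA replication had more lowered members.

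**Figure D3:**
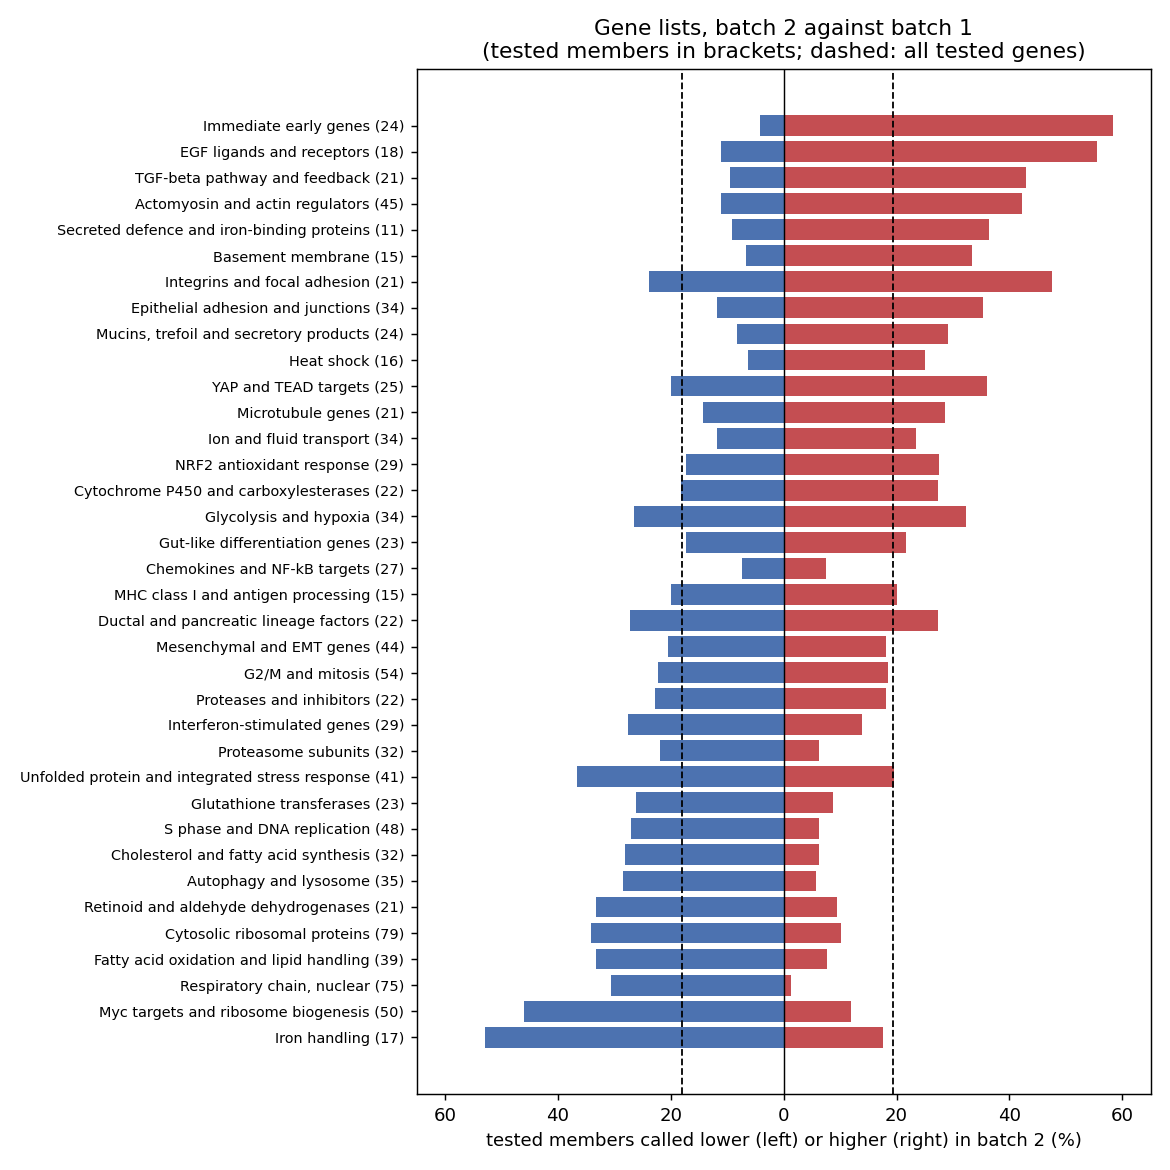
Percent of tested members called lower (bars to the left) or higher (bars to the right) in batch 2 for program lists with at least 10 tested members (1 list is not shown), whose number is in brackets; dashed lines mark the shares over all tested genes, 18.1% lower and 19.3% higher. Immediate early genes and EGF ligands and receptors lie at the raised end, and Myc targets and ribosome biogenesis at the lowered end.

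Of 24 immediate early genes tested, 14 were higher in batch 2 and 1 lower, their median was 0.59 on the log2 scale against -0.05 over all genes, and 8 held within 1.5-fold. Atf3, a stress-induced transcription factor, had 38.7, 51.0, 40.9, 69.0 and 40.7 CPM in batch 1 and 167, 130 and 137 CPM in batch 2 (log2 fold change 1.58 ± 0.25 SE, adjusted p = 2.08e-05). Klf6, a zinc finger factor, had 274 to 412 CPM and 777 to 863 CPM (1.27 ± 0.14, adjusted p = 2.92e-07). Jun, a subunit of the AP-1 transcription factor, had 118, 121, 125, 129 and 90.3 CPM in batch 1 and 278, 254 and 267 CPM in batch 2 (1.19 ± 0.22, adjusted p = 0.000134), and Gadd45b, a stress-response gene, 6.20 to 10.97 CPM and 15.8 to 24.3 CPM (1.19 ± 0.26, adjusted p = 0.00102). None of these 4 genes overlapped between batches. The KPC libraries of batch 2 held 42.2 to 50.8 CPM of Atf3, 552 to 554 CPM of Klf6 and 173 to 201 CPM of Jun. Further members of AP-1, named after their values were seen, were Fos, from 714 to 1316 CPM (0.88 ± 0.25), and Fosl2, from 50.8 to 95.6 CPM (0.91 ± 0.13). Egr1, the early growth response factor, was 270 ± 43 CPM (SD, n = 5) and 329 ± 32 CPM (SD, n = 3), a difference that did not pass (adjusted p = 0.24).

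Myc was the only immediate early gene that fell, with 120 to 181 CPM in batch 1 and 65.2 to 78.3 CPM in batch 2 (log2 fold change -1.06 ± 0.16 SE, adjusted p = 2.08e-05). The summed level of the immediate early list was 5446 to 5777 CPM in batch 1 and 7646 to 8277 CPM in batch 2. The count of raised members ran from 11 to 17 over the alternative analyses, and was 11 with only libraries 4 and 5 of batch 1. The median log2 fold change of the same list was -0.68 for Matrigel against batch 1 and -1.51 for Matrigel against batch 2, and -0.68 and -1.04 for day 7 against batch 1 and batch 2, comparisons that share libraries. The organoids' handling time was not in the labels, and its part in these levels was not tested.

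Ligands and receptors of the EGF pathway and its feedback regulators were raised in 10 of 18 tested genes and lowered in 2, and the median was 0.63 on the log2 scale (0.84 without libraries 4 and 5 of batch 1, and 0.40 against those alone). Among receptors, Egfr had 9.22, 10.01, 9.99, 11.1 and 14.6 CPM in batch 1 and 24.4, 31.9 and 42.4 CPM in batch 2 (1.58 ± 0.22, adjusted p = 4.48e-06), while Erbb2 was 48.6 ± 3.3 CPM (SD, n = 5) and 46.7 ± 5.2 CPM (SD, n = 3; adjusted p = 0.81). Among ligands, Areg (amphiregulin) had 93.6 to 129 CPM and 213 to 267 CPM (1.15 ± 0.16, adjusted p = 6.27e-06), and Hbegf 264, 284, 285, 345 and 296 CPM and 540, 601 and 627 CPM (0.9999 ± 0.15, adjusted p = 9.53e-06). Spry2, a feedback inhibitor of receptor signaling, had 29.6 to 40.6 CPM and 59.9 to 82.8 CPM (0.98 ± 0.17, adjusted p = 8.57e-05). The feedback inhibitors Spry1 (-0.59 ± 0.18, adjusted p = 0.0169) and Errfi1 (-0.27 ± 0.10, adjusted p = 0.0484), named after their values were seen, fell.

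**Figure D4:**
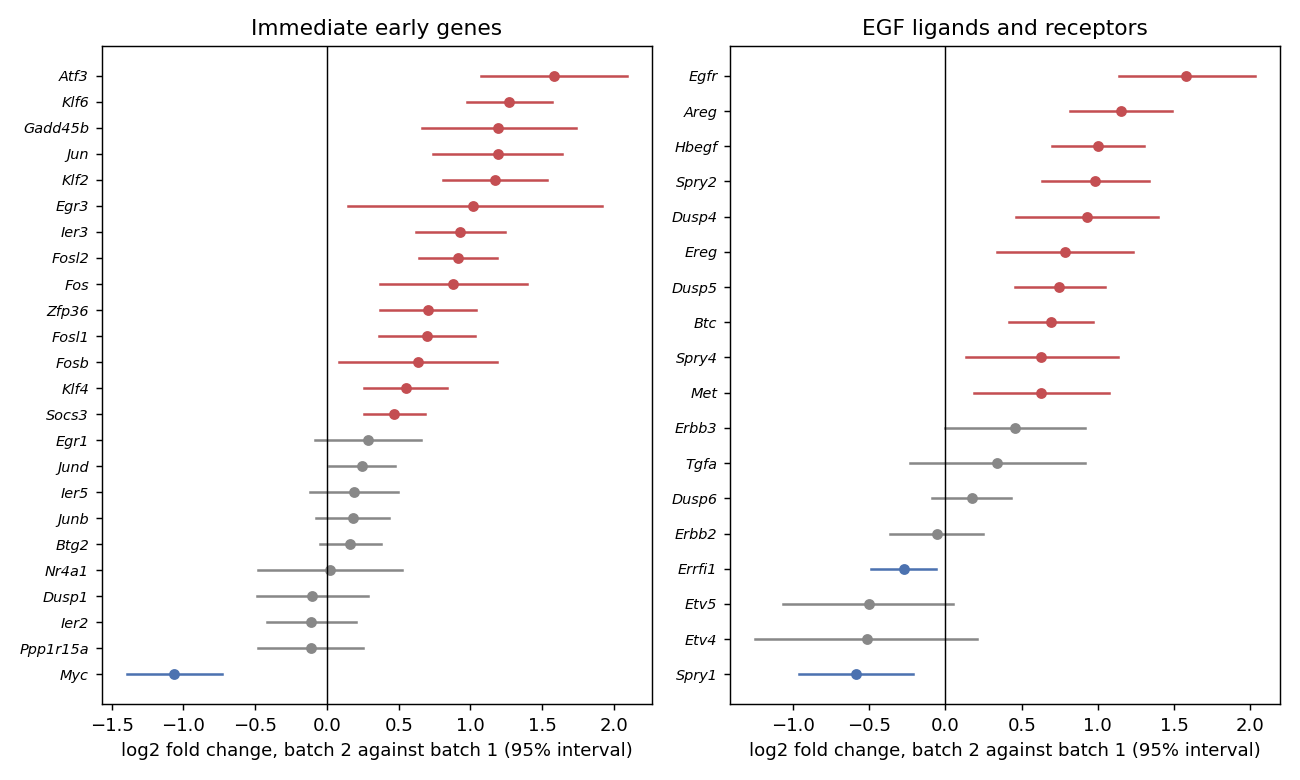
Log2 fold change, batch 2 against batch 1 (horizontal axes), of every tested immediate early gene (left) and of every tested member of the EGF list (right), points with 95% intervals, colored by whether the gene was called higher, lower or neither. Atf3 (1.58) and Egfr (1.58) lie at the top, and Myc (-1.06) and Spry1 (-0.59) at the bottom.

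Genes of collagen adhesion and contraction shifted in both directions. Of 21 integrin and focal adhesion genes 10 were higher and 5 lower (71.4% passed), with a median of 0.20, which became 0.01 once the trend with gene length was removed. Itga1 and Itga2, which pair with the beta1 chain as collagen receptors, had 8.10 to 20.5 CPM and 25.2 to 32.1 CPM in batch 1 and 35.4 to 49.0 CPM and 65.2 to 85.3 CPM in batch 2 (log2 fold changes 1.47 ± 0.20 and 1.36 ± 0.18, adjusted p = 4.80e-06 and 2.24e-06). Itgb5, a vitronectin receptor chain, fell from 53.4–73.1 CPM to 24.5–33.3 CPM (-1.17 ± 0.17, adjusted p = 7.58e-06). Of 45 actomyosin genes 19 were higher and 5 lower, 20 held within 1.5-fold, and the median was 0.23. Rock2, a kinase that activates myosin, had 129 to 171 CPM and 406, 531 and 507 CPM (1.64 ± 0.15, adjusted p = 1.01e-08), while Myl6 fell as given above. The basement membrane list had 5 members higher and 1 lower of 15, led by the laminin chain Lama3, at or under 3.66 CPM in batch 1 and 8.56 to 13.9 CPM in batch 2 (2.79 ± 0.43, adjusted p = 7.90e-06). Its median of 0.11 became -0.11 with the length trend removed, with 3 members higher and 3 lower, and against libraries 4 and 5 of batch 1 alone 1 was higher and 1 lower.

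TGF-beta pathway genes were higher in 9 of 21 and lower in 2, with a median of 0.16, which was 0.07 with the length trend removed and 0.39 without libraries 4 and 5 of batch 1. Smad7 and Skil, inhibitors that the pathway induces, rose from 20.5–34.5 CPM to 53.7–83.9 CPM (log2 fold change 1.22 ± 0.19, adjusted p = 2.69e-05) and from 19.03–34.7 CPM to 47.4–64.5 CPM (1.17 ± 0.17, adjusted p = 8.51e-06). Tgfb1, a ligand, rose by 0.92 ± 0.22 (adjusted p = 0.00239) and Tgfb3, another ligand, fell by 1.91 (adjusted p = 0.00394) from levels of 2.85 to 8.90 CPM. Of 25 YAP and TEAD targets 9 were higher and 5 lower, with a median of 0.27, which became 0.03 with the length trend removed at the same counts. Ccn1, a secreted matrix protein and early response gene, rose from 16.2–28.6 CPM to 63.9–76.2 CPM (1.54 ± 0.18, adjusted p = 4.23e-07), and Foxf2, a forkhead factor, fell from 133–218 CPM to 64.9–75.7 CPM (-1.35 ± 0.18, adjusted p = 6.40e-06). The 44 mesenchymal genes split into 8 higher (18.2%, against 19.3% of all genes) and 9 lower (20.5%, against 18.1%), close to the shares over all genes. Their median of 0.06 changed sign in 8 of the alternative analyses, library-size scaling included. Vim, vimentin, was higher by 0.51 ± 0.12 (adjusted p = 0.00166). Snai2, a repressor of epithelial genes, changed by -1.60 ± 0.56 (adjusted p = 0.0162). Without library 3 of batch 2 the adjusted p of Snai2 was 0.101. Cdh2, N-cadherin, was at 4.18 to 7.15 CPM and 6.58 to 9.94 CPM (adjusted p = 0.17). Bgn, a matrix proteoglycan, had 8.36 to 15.7 CPM and 5.27 to 6.62 CPM (adjusted p = 0.0587), and the call was lost under 8 alternatives. The summed fibroblast markers given above overlapped between batches, with medians of 68.4 CPM in batch 1 and 51.3 CPM in batch 2, and their part was not tested.

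Epithelial genes and secretory products were raised more often than lowered. Of 34 adhesion and junction genes 12 were higher and 4 lower, with a median of 0.24, which was 0.52 without libraries 4 and 5 of batch 1 and 0.07 against those alone. Cldn18, the claudin of gastric tight junctions, had 884, 758, 779, 838 and 984 CPM in batch 1 and 2111, 2364 and 2061 CPM in batch 2 (log2 fold change 1.36 ± 0.18, adjusted p = 2.16e-06), against 618 to 870 CPM in the KPC libraries. Dsg2, a desmosomal cadherin, had 39.2, 33.4, 35.2, 101 and 115 CPM in batch 1, higher in libraries 4 and 5, and 169 to 186 CPM in batch 2 (1.47 ± 0.28, adjusted p = 0.000175), with 2.37 when libraries 4 and 5 are left out and 0.73 against those alone. Cdh1, E-cadherin, had 190 to 265 CPM and 248 to 273 CPM, and its difference of 0.24 ± 0.15 did not pass (adjusted p = 0.22), though it did under 6 of the alternatives. Krt19, a ductal keratin, rose from 3294–4239 CPM to 5622–6389 CPM (0.67 ± 0.15, adjusted p = 0.00122), and 4 of 8 keratins were higher and 0 lower.

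Among mucins, trefoil factors and secretory products 7 of 24 were higher and 2 lower, 37.5% passing against 37.3% of all genes, with a median of 0.26 (0.46 without libraries 4 and 5 of batch 1). Gkn1, gastrokine 1, a secreted protein of the gastric pit, had 2578, 3198, 2970, 4019 and 5105 CPM in batch 1 and 9894, 9476 and 9459 CPM in batch 2 (log2 fold change 1.43 ± 0.27, adjusted p = 0.000157), and the KPC libraries held 8462 to 10530 CPM. Tff1, a trefoil peptide that stabilizes mucus, rose from 6216–10470 CPM to 16020–17380 CPM (1.11 ± 0.16, adjusted p = 9.06e-06). Anxa10, an annexin of gastric epithelium, rose from 153–285 CPM to 489–592 CPM (1.38 ± 0.17, adjusted p = 8.47e-07). In these 3 genes libraries 4 and 5 of batch 1 were its highest, and batch 2 lay above them without overlap. The transcript 2210407C18Rik, on the gut-like list, rose from at most 1.57 CPM to 16.0 to 21.7 CPM (4.10 ± 0.43, adjusted p = 3.05e-08), and Isx, an intestinal homeobox factor, fell from 10.97–30.03 CPM to 2.65–6.24 CPM (-2.21 ± 0.44, adjusted p = 0.000126). Duoxa2 and Duox2, which together form an epithelial hydrogen peroxide source, were higher by 2.15 ± 0.31 and 1.79 ± 0.31 (adjusted p = 5.90e-06 and 6.35e-05).

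Myc targets and ribosome biogenesis had 23 lower and 6 higher members of 50, with a median of -0.37. Against libraries 4 and 5 of batch 1 alone 8 were lower and 5 higher, with a median of -0.20. Fbl, the nucleolar methyltransferase fibrillarin, fell from 43.9–60.8 CPM to 21.2–23.04 CPM (log2 fold change -1.23 ± 0.19, adjusted p = 1.40e-05), with 70.3% of its 3′ words shared. Ncl, nucleolin, moved the other way, from 301–421 CPM to 556, 729 and 684 CPM (0.93 ± 0.16, adjusted p = 8.06e-05). Of 79 cytosolic ribosomal protein genes 27 were lower and 8 higher, with a median of -0.21 and a highest value of 0.99 (Rps10). The share passing was 44.3%, against 37.3% of all genes and 43.35% at these members' levels. The median was -0.10 with the length trend removed and -0.04 against libraries 4 and 5 of batch 1 alone. The list split by 3′ sequence shared with other genes: of 39 genes with over 50% shared, 18 were lower and 4 higher (median -0.51), of 27 with less, 6 and 3 (median -0.11), and of 13 with none, 3 and 1 (median -0.15). Rps10 and Rplp1, the latter from 1165 to 2033 CPM (0.80 ± 0.16, adjusted p = 0.000406), were raised. The difference between the 3 groups of ribosomal genes was not tested.

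Respiratory chain, iron, fatty acid, cholesterol and autophagy lists had more lowered than raised members, while glycolysis, the mitochondrially encoded respiratory chain (1 higher and 1 lower of 8) and the cytochrome P450 and carboxylesterase list (6 higher and 4 lower of 22) did not. Of 75 nuclear-encoded respiratory chain genes 23 were lower and 1 higher (32% passing, against 37.3% of all genes), 39 held (52%), and the median was -0.18. With the trend of gene length removed the counts became 13 lower and 10 higher. Cox8a, a cytochrome c oxidase subunit, fell from 1230–1519 CPM to 674–903 CPM (log2 fold change -0.78 ± 0.12, adjusted p = 1.98e-05), while Cox4i1, another subunit, had 1090 to 1237 CPM and 1082 to 1140 CPM (adjusted p = 0.88). The mitochondrially encoded mt-Cytb had 5076 to 6698 CPM and 5363 to 5823 CPM (adjusted p = 0.83). Iron handling had 9 members lower and 3 higher of 17, led by Ftl1, and 5 and 3 with the length trend removed. Slc40a1, the iron exporter ferroportin, changed by -0.95 ± 0.28 and Trf, transferrin, by -1.246 ± 0.32. Against libraries 4 and 5 of batch 1 alone neither Slc40a1 nor Trf passed (adjusted p up to 0.168 and 0.174 over the alternatives), and Slc40a1 was also lost without library 1 of batch 2. The heavy chain Fth1 stood at 2319 to 2727 CPM and 2065 to 2197 CPM (-0.28 ± 0.12, adjusted p = 0.0753), a call lost under 16 of 22 alternatives. Fatty acid oxidation (13 lower, 3 higher of 39), cholesterol and fatty acid synthesis (9 and 2 of 32) and autophagy (10 and 2 of 35) had more members lower than higher. In that order 41.0%, 34.4% and 34.3% passed, against 37.3% of all genes. All 3 shares were under those found at their members' levels (42.6%, 46.0% and 44.1%). The shares lower were 33.3%, 28.1% and 28.6%, against 18.1% of all genes. Glycolysis and hypoxia genes were divided, 11 higher and 9 lower of 34, with Ero1l, an oxidase of protein folding induced by hypoxia, at 1.07 ± 0.17 and Pgk1 at -1.95.

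Cell cycle lists depended on which batch 1 libraries stood beside batch 2. Of 48 DNA replication genes 13 were lower and 3 higher (median -0.30), and with only libraries 4 and 5 of batch 1 the counts were 2 and 3 (median -0.015). The share of DNA replication genes passing was 33.3%, under the 37.3% of all genes and the 38.3% found at their levels. The share lower was 27.1%, against 18.1% of all genes. Mcm6, a helicase subunit, had 104, 87.2, 105, 73.5 and 67.9 CPM in batch 1, lowest in libraries 4 and 5, and 44.1, 38.1 and 48.4 CPM in batch 2 (log2 fold change -1.01 ± 0.22, adjusted p = 0.000963). Of 54 G2/M genes 12 were lower and 10 higher (median -0.18). The share passing was 40.7%, near the 37.3% of all genes and the 41.9% found at these members' levels. The counts were 16 and 8 (-0.29) when libraries 4 and 5 of batch 1 are left out and 0 and 10 (0.14) when libraries 1 to 3 are left out. The kinesin gene Cenpe, the topoisomerase gene Top2a and the proliferation marker Mki67 rose by 1.67 ± 0.33, 1.06 ± 0.23 and 1.14 ± 0.31 (adjusted p = 0.000301, 0.000698 and 0.00563), and Cks2, a cyclin-dependent kinase partner, fell by 1.18. Against libraries 4 and 5 alone the adjusted p of Cks2 was 0.166.

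Stress and interferon programs split as well. Cdkn1a, a cyclin-dependent kinase inhibitor, had 352, 328, 291, 379 and 473 CPM in batch 1 and 1026, 1136 and 836 CPM in batch 2 (log2 fold change 1.46 ± 0.13, adjusted p = 9.28e-09), whereas the ubiquitin ligase Mdm2 fell from 52.9 to 33.1 CPM (-0.67 ± 0.16) and the apoptosis effector Bax from 226 to 155 CPM (-0.55 ± 0.11). The last 2 were named after their values were seen. Among unfolded protein and integrated stress genes 15 were lower and 8 higher of 41, which became 10 and 10 with the length trend removed, and Phgdh, of serine synthesis, fell from 22.5–37.8 CPM to 6.93–13.2 CPM (-1.59 ± 0.26, adjusted p = 2.03e-05). Of 29 interferon-stimulated genes 8 were lower and 4 higher, which became 5 and 5 without libraries 4 and 5 of batch 1. The antiviral Ifit3 had 28, 28, 17, 36 and 27 counts in batch 1 and 0, 1 and 2 in batch 2. Its ratio was 19.3 in the summed counts, with an interval of 6.45 to 94.5 that covers counting error only. Samd9l rose from 49.8–82.4 CPM to 161–220 CPM (1.42 ± 0.17, adjusted p = 4.23e-07). Slc7a11, the cystine transporter induced by NRF2, had 10.6, 8.10, 9.51, 33.4 and 34.5 CPM in batch 1 and 65.2, 58.2 and 47.7 CPM in batch 2 (1.57 ± 0.30, adjusted p = 0.000258; 0.75 against libraries 4 and 5 alone), and Nqo1, another NRF2 target, fell from 26.7–37.1 CPM to 12.5–17.2 CPM (-1.15 ± 0.20, adjusted p = 8.06e-05).

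The proteasome, heat shock and antigen presentation lists had the largest parts held between batches among those described here. Of 32 proteasome subunits 21 held within 1.5-fold (65.6%), 7 were lower and 2 higher, against 22.6% held over all genes, a share that rises with level and reaches 46.7% in the tenth of genes with the highest levels. Psma7, a core subunit, had 355 to 396 CPM and 381 to 424 CPM (adjusted p = 0.86). Of 16 heat shock genes 9 held (56.2%), and 4 were higher and 1 lower. Hspa8 had 576 to 888 CPM and 733 to 811 CPM, while Hsp90ab1 rose from 847–953 CPM to 1496–1544 CPM (log2 fold change 0.77 ± 0.10, adjusted p = 2.76e-06). Of 15 antigen presentation genes 8 held (53.3%), while 3 were higher and 3 lower (40% passing, against 37.3% of all genes). Their log2 fold changes ran from -1.53 to 0.70. The 27 chemokine and NF-kB genes had 2 higher and 2 lower, 14.8% against 37.3% of all genes, and 8 held (29.6%, against 22.6%). Their log2 fold changes ran from -5.12 to 0.77. Cxcl5, the most abundant chemokine, had 155 to 377 CPM and 181 to 325 CPM (adjusted p = 0.90).

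The highest-level genes whose interval lay within 1.5-fold were Clu, a secreted chaperone (6678 to 8710 CPM and 7531 to 7721 CPM, adjusted p = 0.63), the galectins Lgals2 (6009 to 7278 CPM and 5964 to 6147 CPM) and Lgals4 (3314 to 3829 CPM and 3412 to 3596 CPM), and Ldha, lactate dehydrogenase (3174 to 3702 CPM and 3513 to 3978 CPM). Of the line's own markers, Mtap had 107 to 150 CPM and 110 to 128 CPM (adjusted p = 0.25), Xist had at most 4.70 CPM in batch 1 and 5.55 CPM in batch 2, and the Y-linked Kdm5d was present in both batches but higher in batch 2, at 7.27 and 15.5 CPM (log2 fold change 1.09 ± 0.25, adjusted p = 0.00161). Of 11 line-identity genes tested 4 were higher and 0 lower. The share passing was 36.4% against 37.3% of all genes, and all of it was higher, against 19.3% higher over all genes. The ductal keratin Krt7 had 924 to 1247 CPM and 1119 to 1289 CPM (adjusted p = 0.60).

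Long genes and transcripts with low GC content were raised more often. In the tenth of genes with the longest exon sequence, 44.8% were higher and 5.27% lower (median 0.41), and in the tenth with the shortest 11.1% and 23.1% (median -0.19). In the tenth with the lowest GC content of the transcript 29.3% were higher and 10.2% lower, and in the tenth with the highest 7.92% and 25.2%. Of 437 genes with over 50% of 31-base words shared, 39.4% were lower and 11.9% higher (median -0.60), and of 245 processed pseudogenes 94 were lower and 19 higher (median -1.45). These are descriptions with no test, and whether they follow from library preparation or from the cells was not tested. With protein-coding genes free of shared words alone, 3346 of 8962 passed the test, and with the length trend removed, 3944 of 11144.

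**Figure D5:**
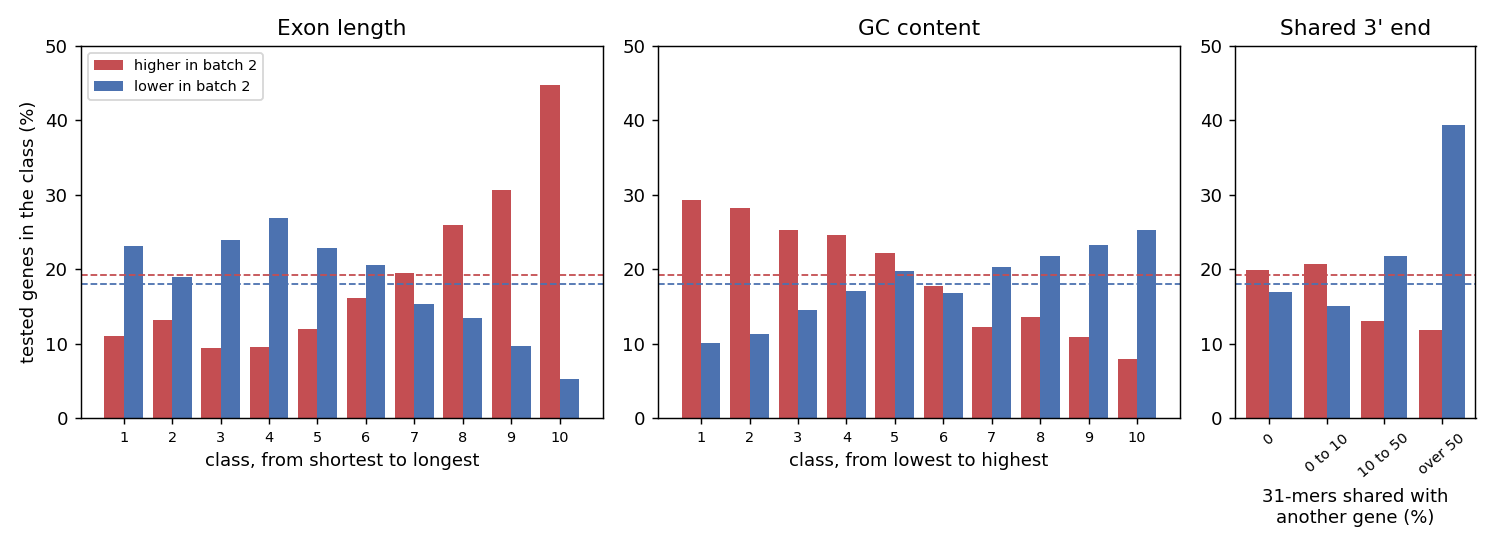
Percent of tested genes called higher or lower in batch 2 (vertical axes) in 10 classes of exon length, 10 classes of transcript GC content, and 4 classes of 31-base words of the last 400 transcript bases shared with another gene; dashed lines mark the shares over all genes. The share called higher reaches 44.8% in the longest class, and the share called lower reaches 39.4% where over 50% of words are shared.

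Some noncoding RNAs were higher, among them nucleolar and mitochondrial ones. Of 71 lincRNAs tested 11 were higher (15.5%, against 19.3% of all genes) and 2 lower, and of 11 nuclear long noncoding RNAs 3 were higher and 0 lower, with a median of 0.06. Malat1, a nuclear-retained RNA, had 3753, 2070, 2199, 2161 and 2559 CPM in batch 1 and 7040, 9451 and 8381 CPM in batch 2 (log2 fold change 1.70 ± 0.23, adjusted p = 2.76e-06), while the KPC libraries of batch 2 had 2556 to 3699 CPM. Neat1, the scaffold of paraspeckles, rose from 87.7–129 CPM to 179, 324 and 217 CPM (1.13 ± 0.23, adjusted p = 0.000400), with KPC at 57.1 to 90.1 CPM. Of 12 small nucleolar RNAs tested 8 were higher and 0 lower, and both mitochondrial ribosomal RNAs rose, mt-Rnr1 from 6802 to 15840 CPM (1.22 ± 0.38, adjusted p = 0.0151) and mt-Rnr2 from 14120 to 30310 CPM (1.10 ± 0.31, adjusted p = 0.00680). Counts of mitochondrial genes made up 3.01% to 4.83% of each batch 1 library, 5.59% to 6.18% of batch 2 and 5.10% to 5.84% of the KPC libraries, and lincRNAs 0.374% to 0.546%, 0.856% to 1.09% and 0.428% to 0.556%.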

How the data were processed

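Total RNA was extracted from organoids with a Qiagen kit, reverse transcribed from poly(A) tails with a sample barcode and UMI, and sequenced from the 3′ end. The table deposited by the authors holds raw UMI counts per gene (27207 genes, 23 libraries), made with the Drop-seq pipeline on GRCm38; no normalization was applied by the authors. The unused sample columns number 0. CPM are counts scaled by TMM-adjusted library totals.

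Genes passing edgeR's filterByExpr over the 6 condition groups (11144) were tested in a fit of all 23 libraries with TMM factors and the quasi-likelihood F-test (edgeR 4.0.16, R 4.3.3), with Benjamini-Hochberg adjusted p under 0.1; limma 3.58.1 and DESeq2 1.42.0 served alternatives, and figures used matplotlib 3.10.9. SE and 95% intervals come from the fitted coefficients, and CPM values are means or single libraries as stated. Gene positions and shared 31-base words in the last 400 transcript bases come from GENCODE on GRCm38 (11002 of 11144 genes with a position). Scripts were tested on simulated counts.

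Named genes are Apol7a, Dstn, Ftl1 and Eml4; the 12 most raised and 12 most lowered of the genes passing the test with at least 20 CPM in the higher batch and no overlap; up to 4 members of each list whose share passing exceeds the background, or its 2 highest members otherwise; Cdh1, Krt7, Krt19, Vim, Cdh2, Xist, Malat1 and Neat1; the 10 highest genes held within 1.5-fold; and the 10 smallest adjusted p. Some items that the rule or the genotypes name are not reported here. Members and lists were chosen with earlier results of these data known. Of 22 other ways of processing, 3 were chosen after seeing the data.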

Additional observations from a re-analysis of the deposited data

Results flagged for a closer look

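Of 190 sets of batch 1 values (5 libraries each) examined for a single library far from the rest, 6 stood out by a gap over 0.71 of the range, and chance alone flags about 1 in 20 such sets. Igfbpl1 had 5.99 CPM in library 1 against 31.9 to 41.5 CPM in the others. Jun had 90.3 CPM in library 5 (others 118 to 129 CPM). Samd9l had 49.8 CPM in library 1 (others 74.8 to 82.4 CPM). Duoxa2 had 4.76 CPM in library 3 (others 16.6 to 20.9 CPM). Ftl1-ps1 had 4.76 CPM in library 3 (others 1.57 to 1.91 CPM). Adh1 had 50.5 CPM in library 2 (others 24.0 to 31.4 CPM).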

How the results depend on the processing

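The count of 4161 genes passing the test ranged over the alternatives from 2348 (batch 1 without its first 3 libraries; 1371 higher, 977 lower) to 4848, and no gene that passed in both reversed its sign. Scaling by library size alone lowered the number raised to 1418 and shifted the median of all genes to -0.18, with 35.3% of calls higher against 51.6%; requiring 10 counts in every library lowered the number of lowered genes to 1309, from fewer genes tested. Other causes were not tested. Leaving out 1 library at a time gave 3133 to 4250 genes passing the test, 1754 to 2335 higher, 1379 to 2016 lower, a pseudo-F of 11.97 to 17.07 and 23 to 27 lists with a larger share passing than all genes (30 with all libraries). With a margin of 2-fold 6727 genes held, and with a margin narrower than 1.5-fold 271. The replicate numbers shared by both batches were also tried as a replicate block, giving 4805 genes. Correlations of same-numbered libraries were 0.0759, -0.0905 and -0.00712. These use deviations from each batch's own mean over few libraries, so they cannot tell whether same-numbered libraries share an origin. In the fit with the replicate block 43 ribosomal protein genes were lower and 5 higher. Not every library correlated best with its own number. Over all alternatives together, the log2 fold changes of the named genes kept direction and side of the threshold in 3724 values, lost the call in 188 and gained it in 36, with 0 reversed. Depth limits genes near 3 counts per library.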
